A study of Rattus norvegicus with 7 samples.

Results

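The let-7 and miR-98 family was followed in pancreatic islets of male Wistar rats aged 12 months (4 samples, replicates 2, 4, 10 and 16) and 3 months (3 samples, replicates 9, 11 and 13). The labels name no genetic modification or treatment in either group, and age is the only difference they give. Islets had been isolated by collagenase digestion, a preparation that holds beta cells, other endocrine cells and whatever exocrine, vascular and blood cells remain attached. Total RNA of each sample had been labelled with a single dye, Cy3, and hybridised to 1 array. The members were chosen by name: rno-let-7a, rno-let-7b, rno-let-7c, rno-let-7d, rno-let-7e, rno-let-7f, rno-let-7i and rno-miR-98 are 8 of the 677 rat miRNAs with features on the array, and the opposite (star) strands of their hairpins were left out. Each member was read by 2 probes with 10 spots each, and the scanner software detected all 8 members on all 7 arrays.

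MicroRNAs are short RNAs that guide a silencing complex to messenger RNAs, and the bases that mostly set the choice of target form the seed near the 5′ end. The let-7 family is among the most conserved of all miRNA families, and in vertebrates it accumulates as cells leave the proliferating state and differentiate. Its hairpins are held back from maturation by the RNA-binding proteins Lin28a and Lin28b, and its known targets include the chromatin protein Hmga2, Ras genes and components of the insulin and insulin-like growth factor pathway. The study asked which miRNAs differ between the islets of young adult and 12-month-old rats.

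The mature sequences are shown because they define the family and because the array had to tell near-identical molecules apart. They were matched by name to RefSeq (table of build GRCr8), and 8 of 8 members were found. Capitals mark the seed, bases 2 to 8 from the 5′ end, which the members share.
let-7a: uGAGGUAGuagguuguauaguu
let-7b: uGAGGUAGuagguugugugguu
let-7c: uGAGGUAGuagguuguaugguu
let-7d: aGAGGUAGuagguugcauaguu
let-7e: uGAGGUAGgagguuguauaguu
let-7f: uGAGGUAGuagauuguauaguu
let-7i: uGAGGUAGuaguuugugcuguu
miR-98: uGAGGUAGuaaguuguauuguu

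All 8 sequences were 22 bases long, and 14 positions were identical in all of them. Written with the let-7a base first, the position counted from the 5′ end and then the base of the member, let-7c differed from let-7a by A19G, let-7e by U9G and let-7f by G12A. Let-7b carried A17G and A19G, and let-7d carried U1A and U16C. MiR-98, a member of the family in all but name, differed by G11A and A19U. Let-7i was the most distant from let-7a, with G12U, A17G, U18C and A19U. No substitution lay in the seed. Of the 28 pairs of members, 4 differed at 1 position only, namely let-7a with let-7c, let-7e and let-7f, and let-7b with let-7c. How much signal a probe took from a near-identical member was not tested. RefSeq listed 9 mature rat miRNAs with this seed. The remaining one, let-7g, was not analysed here.

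In the RefSeq annotation of GRCr8 the members came from separate hairpins on several chromosomes, many of them beside other miRNA genes. The let-7a-1, let-7f-1 and let-7d hairpins lay together on chromosome 17, within the span of the non-coding gene LOC120097935. Let-7a-2 lay beside miR-100 on chromosome 8, within Mir100hgl. Let-7c-1 lay beside miR-99a on chromosome 11, and let-7e lay with miR-99b and miR-125a on chromosome 1 within Spaca6. Let-7b and let-7c-2 were neighbours on chromosome 7, where let-7i was also found, apart from them. The let-7f-2 and miR-98 hairpins both lay within the ubiquitin ligase gene Huwe1 on chromosome X. For let-7a, let-7c and let-7f the mature sequence can come from several hairpins, so the array signal is the sum over these genes.

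The arrays differed in brightness by age, which touches every value below. The software detected 278 to 296 rat miRNAs per array in 12-month-old rats and 246 to 272 in 3-month-old rats, and the 75th percentile of signal over the rat miRNAs ran from 67.0 to 73.8 against 37.4 to 55.4 scanner units. No spot was saturated. Endocrine markers (miR-375 and miR-7a) were the brightest list, with a summed signal of 32797 to 62626 at 12 months and 25607 to 34434 at 3 months. Markers of other cells were also present. The summed signal of 5 mesenchymal miRNAs (miR-143, miR-145, miR-199a-5p, miR-199a-3p and miR-214) was 2629 to 3645 against 736 to 1711, that of 3 acinar miRNAs (miR-216a, miR-216b and miR-217) was 149 to 1451 against 887 to 1722, that of 4 leukocyte miRNAs was 310 to 663 against 142 to 222, that of 2 erythroid miRNAs was 144 to 289 against 86.7 to 224, and that of the endothelial miR-126 was 2137 to 2743 against 1002 to 1726. All of these markers were tested as described below. After quantile normalisation 3 of 3 acinar miRNAs were lower at 12 months with an unadjusted p below 0.05 by limma (median log2 difference -2.11), 5 of 5 mesenchymal miRNAs were higher, 4 of them with an unadjusted p below 0.05 (median 1.16), and 2 of 4 leukocyte miRNAs were higher with such a p (median 0.62), beside 21.7% of all tested miRNAs with an unadjusted p below 0.05 in either direction. Of the markers counted here, miR-142-5p was detected on 0 of 3 younger arrays and miR-145 on 2 of 3. Both were tested only because they were detected throughout the older arrays, so their higher values there are no support for a difference. None of the 17 markers had an adjusted p below 0.05, and 0 of 2 endocrine miRNAs had an unadjusted one. Several cell types express let-7, and the part that cell composition plays in the family's values was not tested. In bulk RNA, fewer cells of a type and less of a miRNA per cell cannot be told apart.

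Before normalisation, the family looked uniformly higher in the older rats. The total gene signal used here is the background-subtracted sum that the scanner software gives for all probes of a miRNA, in linear scanner units, with a scanner error of 7.15% to 8.46% for the members. It depends on each probe's affinity, so no member's level is set against that of another.

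For let-7a, which is often taken as the reference member of the family, the total gene signal was 15864.5, 14094, 11127 and 15721.5 on the arrays of 12-month-old replicates 2, 4, 10 and 16, and 6491, 10378 and 7882 on those of 3-month-old replicates 9, 11 and 13. Replicate 10 gave the dimmest of the older arrays and replicate 11 the brightest of the younger ones, and the ages did not overlap. Let-7c, a base away from let-7a, gave 17724, 15584, 13141 and 17654.5 at 12 months and 7155, 12169 and 9439 at 3 months. Let-7f gave 17027, 15030.2, 11342 and 16908 at 12 months and 6693, 10838 and 7912 at 3 months. In both, as in let-7a, replicate 10 was the dimmest of the older arrays and still stood above replicate 11.

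Let-7b gave 11529, 10918.5, 10057 and 12411 at 12 months and 5396, 8442 and 7499 at 3 months. Its 12-month-old arrays were the closest together of these brighter members, with replicate 10 less far below the rest. Let-7d gave 4795, 4319, 3226 and 4960.3 at 12 months and 1917, 3095 and 2341 at 3 months. Let-7i gave 4566, 4471, 3817 and 5033 at 12 months and 2203, 3409 and 2488 at 3 months. Both kept the ages apart, by a narrow margin for let-7d.

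In let-7e and miR-98 the ages overlapped. Let-7e gave 5779, 4611, 3432 and 5912 at 12 months and 2338, 3730 and 2575 at 3 months. MiR-98 gave 1491, 1252, 883 and 1472 at 12 months and 641, 937 and 624 at 3 months. In these members the older replicate 10 fell below the younger replicate 11, while the other 3 older arrays stood above every younger one.

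The ratio of the mean signals, 12 over 3 months, lay between 1.58 in let-7b and 1.78 in let-7f. In 6 of 8 members the ages did not overlap, beside 48.5% of all 272 miRNAs tested. The size of the shift was that of the arrays as a whole: the median difference without any normalisation between arrays was 0.78 on the log2 scale over the members and 0.79 over all 272. The mean log2 signal of the 8 members exceeded that of the 264 other tested miRNAs on the same array by 5.52 ± 0.152 (SD, n = 4) at 12 months and by 5.50 ± 0.282 (SD, n = 3) at 3 months, with ranges of 5.37 to 5.68 and 5.19 to 5.74. The younger arrays spanned the range of the older ones.

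**Figure D1:**
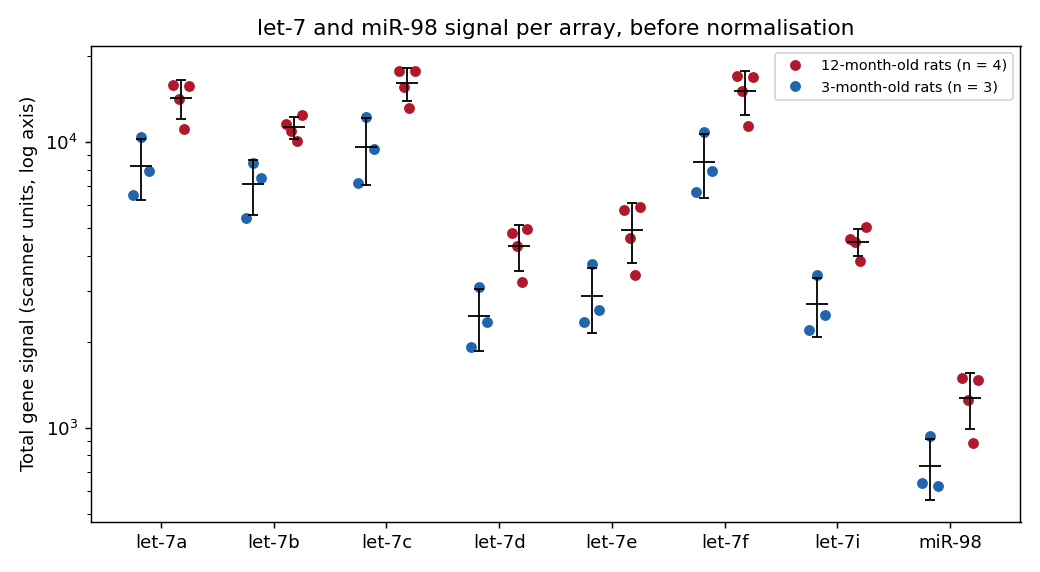
Total gene signal of each member on each array, in scanner units on a log axis, before normalisation. Points are single arrays, horizontal ticks are means and bars are SDs (4 arrays of 12-month-old and 3 of 3-month-old rats). The older arrays sit higher for every member, with overlap only in let-7e and miR-98.

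**Figure D2:**
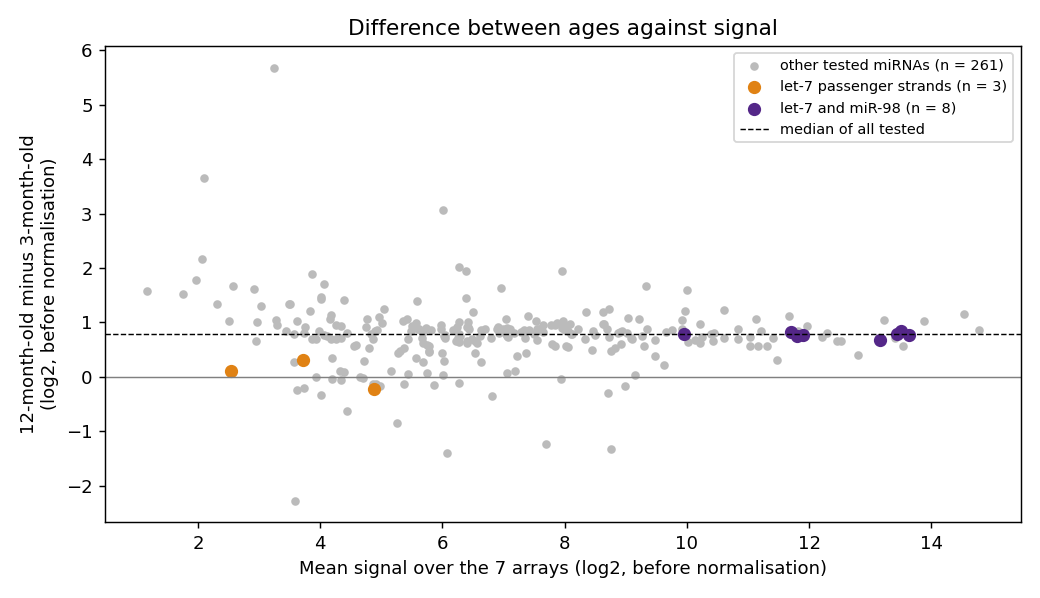
Difference between ages in log2 signal before normalisation (y axis) against mean log2 signal over the 7 arrays (x axis) for the 272 tested miRNAs. The 8 members, at 0.68 to 0.84, lie along the dashed line, the median of all tested miRNAs at 0.79, while the 3 let-7 passenger strands lie under it.

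After quantile normalisation, which gives all arrays the same distribution of values, no member passed the test between the ages. The test took in the 272 miRNAs that the software had called present throughout the older or throughout the younger arrays, with limma's moderated test and Benjamini-Hochberg adjustment over the 272. Of the members 0 of 8 had an adjusted p below 0.05 beside 1.47% of all tested miRNAs, 0 of 8 had an unadjusted p below 0.05 beside 21.7%, and in 0 of 8 the ages did not overlap beside 17.3%. The differences, 12 minus 3 months on the log2 scale, ran from -0.06 to 0.17, with 3 members above 0 and 5 below it and a median of -0.02 against 0.06 over all tested miRNAs. The 95% interval was narrowest in let-7f, from -0.23 to 0.35, and widest in let-7b, from -0.47 to 0.41, and a difference within a member's own interval is not excluded by these arrays.

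The values after normalisation come from ranks. The members stood at ranks 3 to 48 of the rat miRNAs on every array, and an array's value for a rank is the same on all arrays, so members recur at the same numbers. Let-7a stood at 13.38, 13.46, 13.49 and 13.38 at 12 months and 13.05, 13.49 and 13.46 at 3 months. Replicate 9 was the low array, and the other younger arrays lay among the older ones. The difference was 0.10 with a standard error of 0.16 (limma adjusted p = 0.853, two-sided exact permutation p = 0.80).

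Let-7d, whose first base differs from that of all other members, had the largest difference of the 8. It stood at 11.85, 11.70, 11.45 and 11.80 at 12 months and 11.45, 11.45 and 11.70 at 3 months. The older replicate 10 shared its value with the younger replicates 9 and 11, so the ages touched. The difference was 0.17 with a standard error of 0.16 and a 95% interval of -0.20 to 0.53 (limma adjusted p = 0.622, two-sided exact permutation p = 0.314).

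Let-7b stood at 13.05, 13.05, 13.38 and 13.05 at 12 months and 12.79, 13.32 and 13.38 at 3 months. The younger arrays bracketed the older ones, and replicate 9 was again the lowest. The difference was -0.03 with a standard error of 0.19, the widest of the family (limma adjusted p = 0.953). Let-7c, its neighbour in sequence and on chromosome 7, stood at 13.55, 13.69, 13.69 and 13.69 at 12 months and 13.46, 13.69 and 13.92 at 3 months. Here too the younger arrays held both the lowest and the highest value. The difference was -0.03 with a standard error of 0.15 (limma adjusted p = 0.953).

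Let-7f and let-7i were the steadiest members at 12 months. Let-7f stood at 13.49, 13.55, 13.55 and 13.55 at 12 months and 13.38, 13.55 and 13.49 at 3 months, a difference of 0.06 with a standard error of 0.13 (limma adjusted p = 0.899). Let-7i stood at 11.80, 11.80, 11.80 and 11.85 at 12 months and 11.80, 11.70 and 11.96 at 3 months, a difference of -0.01 with a standard error of 0.13 (limma adjusted p = 0.970). In both, replicates of the 2 ages shared values.

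Let-7e and miR-98 also lay below 0, by less than their standard errors. Let-7e stood at 11.96, 11.85, 11.70 and 12.13 at 12 months and 11.85, 11.85 and 12.21 at 3 months, a difference of -0.06 with a standard error of 0.17 (limma adjusted p = 0.943). MiR-98 stood at 9.998, 9.88, 9.80 and 10.05 at 12 months and 9.84, 10.08 and 10.05 at 3 months, a difference of -0.06 with a standard error of 0.14 (limma adjusted p = 0.927). The lowest array of both was an older one, replicate 10.

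**Figure D3:**
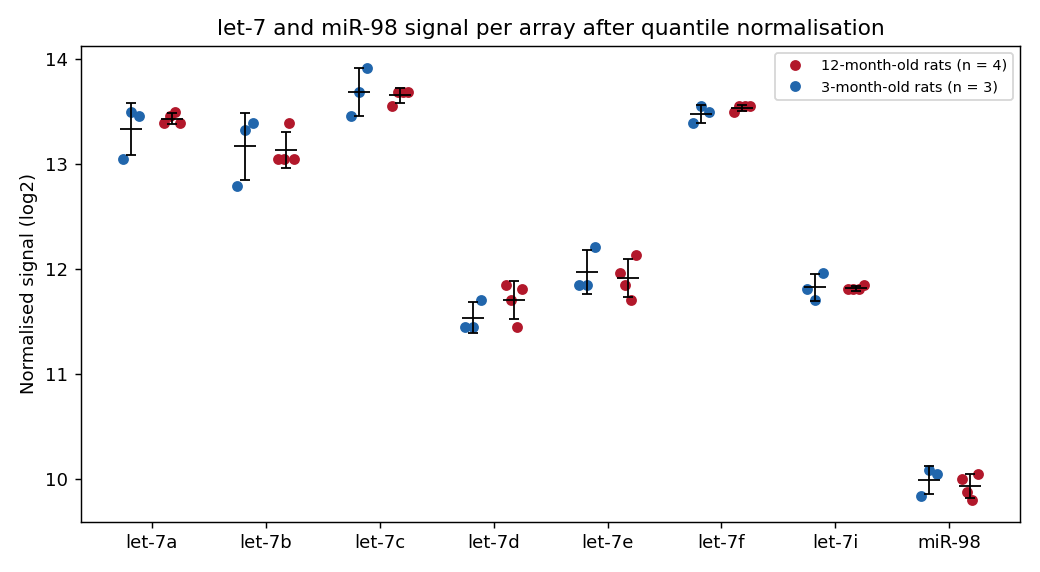
Quantile-normalised log2 signal of each member on each array, with means (ticks) and SDs (bars) for 4 arrays of 12-month-old and 3 of 3-month-old rats. The 2 ages overlap in all 8 members, and many points share a value because the values are set by rank.

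The sign of these small differences depended on the scaling. With arrays scaled to the 75th percentile of the miRNAs detected throughout, the members' median was 0.06 beside 0.07 for all tested miRNAs, with the 75th percentile of all miRNAs it was 0.15 beside 0.16, and with miR-7a as the reference it was -0.09 beside -0.08. These scalings, and the absence of any, move all miRNAs of an array by the same amount, so the place of the members among the tested miRNAs is fixed across them. On such values 3 of 8 members lay above the median of the tested miRNAs, and after quantile normalisation, which can change that place, 3 of 8 did too. Without normalisation between arrays all 8 members passed an adjusted p of 0.05, beside 62.9% of all tested miRNAs. The arrays lay in 2 rows of a single slide, each with both ages. Within the first row (2 older arrays and 1 younger) the members' normalised differences ran from 0.00 to 0.37, and within the second (2 against 2) from -0.14 to 0.05.

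**Figure D4:**
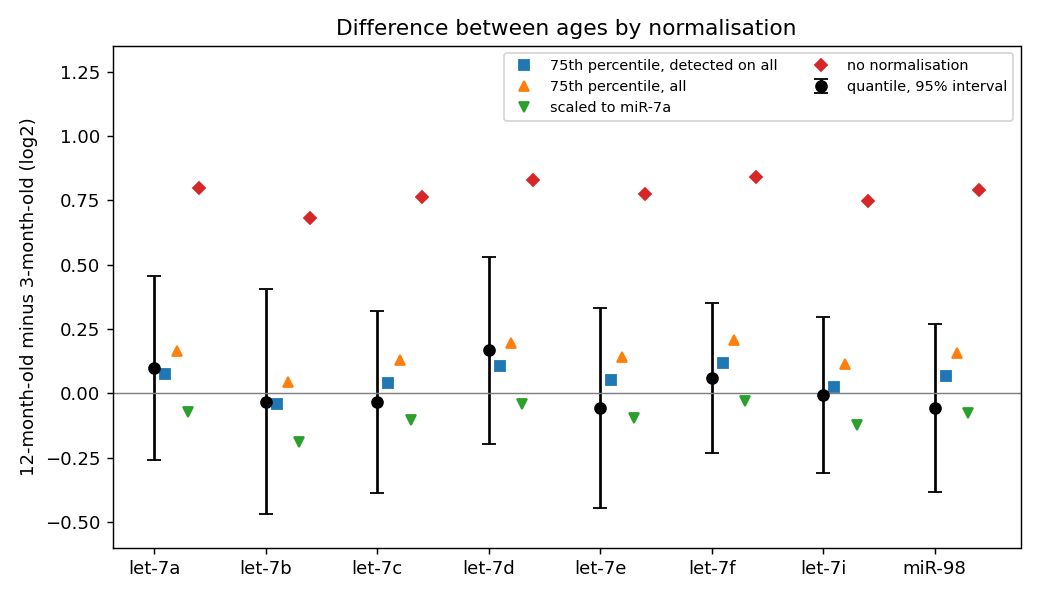
Difference between ages of each member, 12-month-old minus 3-month-old on the log2 scale. Black points are quantile-normalised values with 95% intervals, all of which include 0, and coloured symbols are the same difference under 4 other scalings, of which only the unscaled signal, at 0.68 to 0.84, stands apart from 0.

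The balance among the members was also compared, since a ratio of 2 signals on the same array needs no normalisation between arrays. Each member's log2 signal was set against the mean of all 8 on that array. Between ages the 8 ratios differed by -0.10 (let-7b) to 0.06 (let-7f), and the ages overlapped in each of them, so that 0 of 8 were separate beside 15.1% of all tested miRNAs set against the same mean. Of the 28 ratios of a member to another member, 0 separated the ages, and their differences ran from -0.16 (let-7b over let-7f) to 0.12 (let-7a over let-7b). These 28 ratios rest on the same 8 values per array and are not separate observations. No share was computed for pairs of other miRNAs, so the count is a description only. As members enter the mean they are compared with, their spread is bound to be smaller than that of other miRNAs, and it is given as a description only. The pooled SD within ages was 0.02 to 0.14 for the members, with a median of 0.07, and had a median of 0.31 for the other 264 miRNAs.

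Let-7a kept the most constant place, at 1.07, 1.07, 1.07 and 1.03 above the mean at 12 months and 1.03, 1.04 and 1.06 at 3 months. Let-7d stood 0.65, 0.63, 0.72 and 0.64 below the mean at 12 months and 0.73, 0.71 and 0.69 below it at 3 months on the log2 scale. The older replicate 10 lay among the younger arrays. Let-7f stood 1.18, 1.17, 1.10 and 1.13 above the mean at 12 months and 1.07, 1.10 and 1.07 at 3 months, with the same array, replicate 10, inside the younger range.

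Let-7b and miR-98 varied most within ages, with pooled SDs of 0.14 and 0.12, and let-7b also had the largest difference between ages in size, at -0.10. Let-7b stood 0.61, 0.71, 0.92 and 0.68 above the mean at 12 months and 0.76, 0.74 and 0.99 at 3 months, so that it was highest on the older replicate 10 and the younger replicate 13. MiR-98 stood at -2.34, -2.42, -2.58 and -2.39 at 12 months and -2.31, -2.43 and -2.60 at 3 months, lowest on the same pair of arrays. Replicates 10 and 13 were picked for a closer description after the values were seen. Relative to the other arrays of its age, replicate 10 was 0.26 higher in let-7b, 0.09 higher in let-7c and 0.17 higher in let-7i, while let-7e departed by -0.19 and miR-98 by -0.20. Replicate 13 departed from the other younger arrays by 0.24 in let-7b, 0.10 in let-7c, -0.11 in let-7e and -0.22 in miR-98, and by -0.05 in let-7i, which it did not share. Other arrays departed too. Over the members the range was -0.17 to 0.13 in replicate 2, -0.07 to 0.04 in replicate 4 and -0.06 to 0.13 in replicate 16. Among the younger arrays it was -0.13 to 0.20 in replicate 9 and -0.13 to 0.06 in replicate 11.

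**Figure D5:**
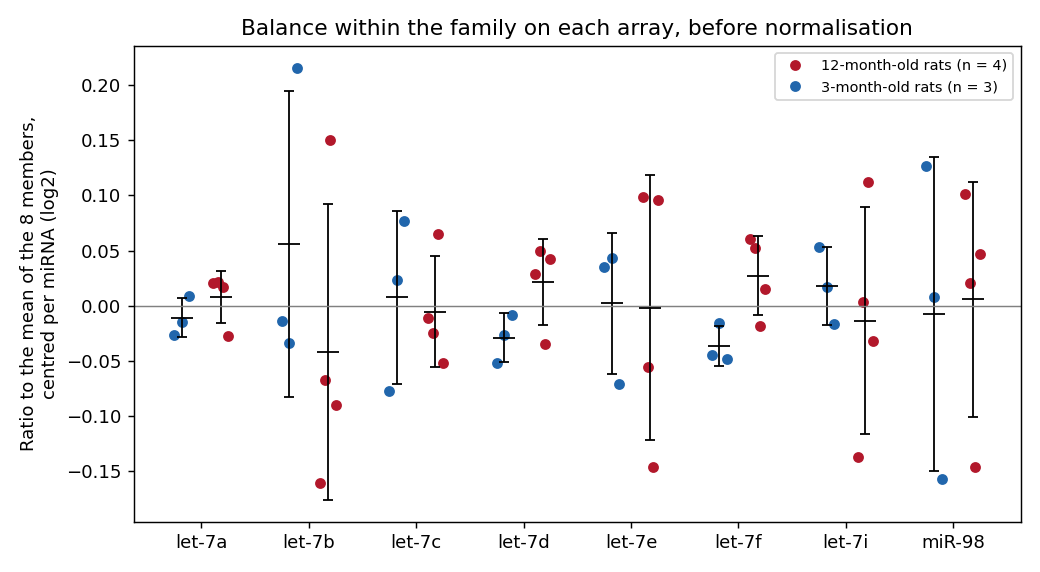
Log2 ratio of each member's signal to the mean of the 8 members on the same array, before normalisation and centred on each member's mean over the 7 arrays. Points are arrays, ticks are means and bars are SDs (n = 4 and n = 3). The ages overlap in all 8 members, and the spread is widest in let-7b and narrowest in let-7a.

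The 2 probes of each member were read apart as well. Without normalisation all 16 probes were brighter at 12 months, by 0.65 to 0.90 on the log2 scale. After quantile normalisation the probes differed between ages by -0.10 to 0.15, and in 5 of 8 members (let-7a, let-7b, let-7c, let-7e and let-7i) the 2 probes had opposite signs. The ratio of the brighter to the dimmer probe overlapped between ages in 8 of 8 members. It was 2.78 ± 0.0356 (SD, n = 4) and 2.90 ± 0.134 (SD, n = 3) in let-7a, and 1.36 ± 0.0269 and 1.37 ± 0.0385 in miR-98, the least unequal pair. In every member the ratio was more variable among the 3 younger, dimmer arrays.

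Summed over the 8 members, the family made up 19.6%, 20.3%, 20.9% and 21.0% of all rat miRNA signal at 12 months and 17.4%, 21.9% and 24.0% at 3 months. The younger arrays lay on both sides of the older ones. The means were 20.4 ± 0.629% (SD, n = 4) and 21.1 ± 3.36% (SD, n = 3), and the two-sided exact permutation p was 0.686. These are shares of fluorescence, not of molecules, since probes differ in affinity.

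The opposite strands of the hairpins, named with a star on the array and 3p in RefSeq, are the passenger strands that are mostly degraded once the mature strand is loaded. The array carried 9 of them, and 6 (let-7c-1*, let-7e*, let-7f-1*, let-7f-2*, let-7i* and miR-98*) were detected on no array, with total gene signals of -1.95 to 5.98. The 3 that could be tested are shown with bases 2 to 8 in capitals.
let-7a-1*: cUAUACAAucuacugucuuucc
let-7b*: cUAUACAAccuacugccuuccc
let-7d*: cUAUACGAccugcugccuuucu

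Unlike its guide strand, let-7b* was not higher at 12 months before normalisation. Its total gene signal was 30.8, 33.4, 19.6 and 28.4 at 12 months and 32.1, 33.6 and 30.4 at 3 months, so that the ages overlapped and the dimmest array was the older replicate 10. After quantile normalisation it stood at 4.72, 4.76, 4.14 and 4.51 at 12 months and 5.29, 5.16 and 5.50 at 3 months, and every older array lay below every younger one, beside 17.3% of all tested miRNAs with no overlap of the ages in either direction. The difference was -0.79 with a standard error of 0.19. It missed the threshold after adjustment (limma unadjusted p = 0.00336, adjusted p = 0.0608), and the two-sided exact permutation p was 0.0286, the smallest that 4 arrays against 3 allow. It passed with adjusted p = 0.0164 when arrays were scaled to the 75th percentile of the miRNAs detected on all of them, and the difference was -0.22 with adjusted p = 0.475 without any normalisation. Over all alternatives the adjusted p ran from 0.0164 to 0.475. Some other tested miRNAs of low signal also gave differences below 0 without normalisation, among them miR-425* (-0.20) and miR-3549 (-0.17). Both were picked after the values were seen, and the share of such miRNAs at this signal was not computed. After quantile normalisation miR-425* and miR-3549 had differences of -0.86 and -0.66, with no overlap of the ages. MiR-425* was detected on 2 of 4 older and 3 of 3 younger arrays. The median difference without normalisation over the 68 dimmest tested miRNAs was 0.81. That set includes miRNAs tested only because they were detected throughout the older arrays, such as miR-24-2* and miR-30c-1*, each detected on 0 of 3 younger arrays. Let-7b* was detected on every array, so this median is not a fair yardstick for it.

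Since no scaling enters a ratio on the same array, the guide was also divided by its passenger. Let-7b over let-7b* was 413 ± 80.7 (SD, n = 4) at 12 months and 222 ± 46.7 (SD, n = 3) at 3 months. The ranges, 327 to 513 and 168 to 251, did not overlap. Set against the members' mean on the same array, 15.1% of all tested miRNAs had no overlap of the ages. No share was computed for other ratios of a bright to a dim miRNA. Without normalisation the log2 difference was 0.68 for let-7b and -0.22 for let-7b*, beside a median of 0.79 for all tested miRNAs. The let-7b ratio restates the differences of its guide and passenger and is not a separate observation. The corresponding ratio of let-7d over let-7d* was 298 ± 30.7 against 213 ± 62.3, with overlapping ranges of 268 to 327 and 146 to 270. No ratio is given for let-7a-1*, which was not detected on 2 of the younger arrays. The passenger signals are weak, and how far that shaped the ratios was not tested.

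Let-7d* had a normalised difference of -0.32 (limma adjusted p = 0.396), from signals of 17.9, 15.7, 10.02 and 15.2 at 12 months and 13.1, 13.9 and 8.68 at 3 months. Let-7a-1* had a difference of -0.55 (limma unadjusted p = 0.0276, adjusted p = 0.163), and it was detected on 4 of 4 older arrays and on 1 of 3 younger ones, with signals between 5.31 and 6.49 on all 7. Its unadjusted p was above 0.05 in 9 of 22 alternatives, among them normexp (-0.068), the deposited matrix (-0.21) and the omission of replicate 4, 16, 9 or 13 (p of 0.0625 to 0.101 by limma). Among the 3 tested passenger strands, 2 (let-7a-1* and let-7b*) had an unadjusted p below 0.05, both lower at 12 months, beside 21.7% of all tested miRNAs, and 0 had an adjusted p below 0.05. Without normalisation the differences of let-7a-1* and let-7d* turned to 0.11 and 0.30.

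The array also carried 4 antisense miRNAs, miR-3596a to miR-3596d, which RefSeq places on the strand opposite let-7 hairpins. They were chosen after the files had been seen. MiR-3596a is the whole complement of let-7a, and the others lie within the complements of let-7d, let-7e and let-7f. The sequence of the first is shown because it pairs with let-7a along its full length.
miR-3596a: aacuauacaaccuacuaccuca

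None of the 4 was detected on any array, and their signals ran from -1.07 to 3.04 scanner units on arrays where the corresponding let-7 members were detected. The features for the opposite sequence thus stayed at background.

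The miRNAs that share a cluster with let-7 hairpins in vertebrate genomes, miR-99a, miR-99b, miR-100, miR-125a-5p and miR-125b-5p, were examined as partners. Of the 5, 2 were higher and 3 lower at 12 months after quantile normalisation, where 157 of all 272 tested miRNAs were higher. By limma 0 of the 5 had an unadjusted p below 0.05, beside 21.7% of all tested miRNAs, and the median difference was -0.14. MiR-99a, the neighbour of let-7c-1, had a difference of -0.19 with a standard error of 0.15, and miR-99b, the neighbour of let-7e, one of -0.24 with a standard error of 0.18. MiR-100 and miR-125a-5p stood at 0.01 and 0.03, and miR-125b-5p at -0.14.

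Among the 261 tested miRNAs that are neither members nor their passenger strands, those whose profile over the 7 arrays lay closest to the mean of the members were found by the mean absolute difference of centred log2 values. MiR-30b-5p (0.0664), miR-151 (0.0664), miR-153 (0.0715), miR-200a (0.0801) and miR-125b-5p (0.0854) came first, where the median miRNA had 0.243. MiR-125b-5p is a cluster partner. The order rested on the normalisation: with 75th percentile scaling, chosen for this after the data had been seen, the same miRNAs ranked 18, 3, 17, 59 and 31.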

How the data were processed

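The authors scanned single-colour Agilent miRNA arrays of rat islet RNA and deposited, per the labels, the output of Agilent Feature Extraction (version 10.7.3.1), whose background-subtracted intensities are on a linear scale. The authors also deposited a matrix of quantile-normalised log2 values for 307 miRNAs, used here as an alternative. The deposited detection flags served as the filter. Groups followed the age given in the labels. Signals under 1 were set to 1 and put on the log2 scale, all rat miRNAs on the array were quantile normalised, and 272 miRNAs were tested with lmFit and eBayes of limma (version 3.58.1, R version 4.3.3, prior degrees of freedom 3.03) with Benjamini-Hochberg adjustment. Single values were tested with two-sided exact permutations over the 35 splits of the arrays. The study describes the RNA as coming from 4 and 3 rats, and p values measure only the spread among these arrays, whose number limits the precision.

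The members, the marker and partner lists and the tests were chosen with earlier results of these data known. Named miRNAs are the 8 members, their star forms, the cluster partners and the 5 tested miRNAs most like the members' mean profile, beside the cell type markers and the antisense miR-3596a to miR-3596d, the latter added after the files were seen. MiR-425* and miR-3549, set beside let-7b*, were picked after the values were seen. Alternatives covered the variance model, the scaling between arrays, weights for arrays, the methods' t-test, the detection filter, the slide row, the floor, the signal summary, omission of single rats and the deposited matrix. The normexp correction used the median spot signal with an offset of 16. The fit was checked on simulated data, whose planted changes were larger than any member's difference. That check does not bear on differences as small as those of the members. The array header names an older rat assembly than GRCr8, so RefSeq served only for sequences, neighbours and chromosomes. Messenger RNA arrays of the study were not analysed here.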

Additional observations from a re-analysis of the deposited data

Results flagged for a closer look

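Within the 4 arrays of 12-month-old rats, the gap between the most extreme array and its nearest neighbour was divided by the whole range, for each member after normalisation and for each ratio to the family mean. Of 16 such measures 5 lay above Dixon's critical value, which chance passes in about 5% of groups. In 4 of them, all after quantile normalisation, the ratio was 1 because 3 arrays shared a value set by rank: let-7b with replicate 10 highest at 13.38, let-7c with replicate 2 lowest at 13.55, let-7f with replicate 2 lowest at 13.49 and let-7i with replicate 16 highest at 11.85. In let-7a the ratio to the family mean gave 0.901, with replicate 16 lowest at 1.03.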

How the results depend on the processing

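No paired analysis was possible because the 2 ages share no replicate numbers. Outside the setting without normalisation, 0 of 176 tests of a member under 22 alternatives had an adjusted p below 0.05, the lowest being 0.0817 for let-7d with array weights. That setting gave 1 member (let-7d) with an unadjusted p below 0.05.

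Without normalisation the log2 differences were 0.68 (let-7b), 0.76 (let-7c), 0.77 (let-7e), 0.75 (let-7i) and 0.79 (miR-98), and 8 members had an adjusted and 8 an unadjusted p below 0.05. With the 75th percentile of the miRNAs detected throughout they turned to 0.041 (let-7c), 0.050 (let-7e), 0.023 (let-7i) and 0.068 (miR-98), with that of all miRNAs to 0.046 (let-7b), 0.13 (let-7c), 0.14 (let-7e), 0.11 (let-7i) and 0.16 (miR-98), and with miR-7a to -0.073 (let-7a), -0.041 (let-7d) and -0.028 (let-7f). Other turns were 0.017 in let-7i with normexp, 0.13 in let-7e and 0.065 in let-7i with array weights, 0.021 in let-7b with the slide row as a block, and 0.038 in let-7b, 0.032 in let-7c, 0.0096 in let-7e and 0.060 in let-7i in the deposited matrix. The alternatives for passenger strands and cluster partners were added after the data were seen. For let-7a-1* and let-7d* the difference without normalisation was 0.11 and 0.30.

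With each rat left out in turn the differences ran from -0.043 to 0.18 (let-7a), -0.25 to 0.11 (let-7b), -0.15 to 0.086 (let-7c), 0.12 to 0.26 (let-7d), -0.13 to 0.069 (let-7e), 0.013 to 0.096 (let-7f), -0.076 to 0.070 (let-7i) and -0.12 to -0.0090 (miR-98). The number of members higher at 12 months, 3 as reported, was 7, 8, 0 and 8 under the scalings in the order 75th percentile of detected miRNAs, 75th percentile of all, miR-7a and none, 5 with array weights, 7 in the deposited matrix and 2 to 7 with a rat left out (7 without 3-month-old replicate 13, 6 without 12-month-old replicate 2).

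Over all tested miRNAs, 4 had an adjusted p below 0.05 as reported, and 21, 10, 15 and 171 under the same scalings, 2 with normexp, 1 with the filter for detection on all arrays, 48 with array weights, 8 in the deposited matrix and 4 to 10 with a rat left out (10 without 12-month-old replicate 10). With an unadjusted p the count of 59 became 36 with miR-7a, 193 without normalisation, 89 with array weights and 41 to 88 with a rat left out. The ratio to the family mean, taken on quantile-normalised values, gave a difference of 0.080 for let-7a and 0.15 for let-7d. The cause of these changes was not tested. Let-7b* passed the adjusted threshold in 3 of 23 alternatives: -0.94 with the 75th percentile of detected miRNAs (adjusted p = 0.0164), -1.09 with miR-7a (adjusted p = 0.0236) and -0.64 with array weights (adjusted p = 0.0218). The number of arrays and the dim signal of the passenger strands limit what could be seen.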
